A study of Homo sapiens with 12 samples.

Results

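SK/EPI cells that had received an siRNA against BCRP were compared with SK/EPI cells that had received a control siRNA, gene by gene, after 48 h. The comparison used the 6 libraries that the labels name SK/EPI-siBCRP and SK/EPI-siControl, 3 of each, out of the 12 RNA-seq libraries of the study. SK/EPI is an epirubicin-resistant line derived from SK-BR-3, an established human breast cancer cell line with amplified ERBB2. Both groups were SK/EPI cells, and the siRNA is the difference that the labels name. The other 6 libraries came from SK-BR-3 and SK/EPI with no siRNA and were not used here, so that no untransfected group stood beside the comparison. The labels number the libraries within each group but do not say whether they came from separate cultures, so the p-values measure the spread between these libraries, which may be technical. If each group came from a single culture, differences between cultures cannot be told apart from those of the siRNA.

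BCRP, encoded by ABCG2, is a transporter of the ATP-binding cassette family that works as a homodimer and exports drugs, urate and porphyrins across membranes. It is known in breast cancer for lowering the intracellular level of anthracyclines and other drugs. The study reports, however, that silencing BCRP left SK/EPI cells no more sensitive to epirubicin. It proposes P-glycoprotein, another transporter of this family, and not BCRP, as the main pump for epirubicin there. An siRNA is a short RNA duplex, and the strand loaded into an Argonaute protein directs cleavage of a fully matching mRNA. The same strand can also lower mRNAs that match only its seed, bases 2 to 8 counted from the 5′ end. The labels do not say which duplex was used, and the title of a table of the study names siBCRP #1. Its sequences are shown because, on that title, every difference in these libraries was measured with this duplex. The seed of the lower strand, which is complementary to the ABCG2 mRNA, is in capitals.
siBCRP #1 upper strand: gggauacuuugaaucagcugguuau
siBCRP #1 lower strand: aUAACCAGcugauucaaaguauccc
target in the ABCG2 mRNA: gggatactttgaatcagctggttat

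In ENST00000237612, an ABCG2 transcript of 4479 bases (GENCODE 29, GRCh38), the target runs from base 1368 to base 1392, within the coding sequence. It spans the junction of exons 7 and 8 of 16 on the minus strand of chromosome 4. Of its 25 bases, 20 are in exon 7 (88118109 to 88118128) and 5 are in exon 8 (88115054 to 88115058). ABCG2 mRNA was at 32.5, 32.7 and 33.7 FPKM in the SK/EPI-siControl libraries and at 2.84, 3.47 and 2.91 FPKM in the SK/EPI-siBCRP libraries. FPKM are fragments scaled to exon length and library size, so levels of different genes can be compared per length. No SK/EPI-siBCRP library came near a control library, and ABCG2 was 10.7-fold lower (log2 fold change -3.06, standard error 0.059, adjusted p = 5.9e-07). If a single duplex was used, as that title has it, changes that follow the loss of BCRP and changes from other mRNAs bound by the same strands cannot be told apart.

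Between 17078952 and 20545811 reads per library fell on genes, 3.58% to 3.84% of them on the mitochondrial chromosome. For pairs of replicates, chi-square over degrees of freedom lay between 1.80 and 2.41, above the value of 1 that counting error alone gives. The cells carried the markers of a HER2-amplified luminal line, with ERBB2 at 96.1 to 107 FPKM, GRB7 at 43.5 to 62.9 FPKM and KRT8 at 847 to 1004 FPKM over the 6 libraries. CDH1, which encodes E-cadherin, was near 0 at 0.0251 to 0.121 FPKM, and TFAP2B did not pass 0.0289 FPKM. PGR was listed at 0 in all 6 libraries. The basal keratin KRT5 was at 21.0 to 21.7 FPKM in the control libraries and 25.9 to 26.7 FPKM in the SK/EPI-siBCRP libraries. The other basal markers were low, KRT14 at 0.115 to 0.155 and 0.454 to 0.631 FPKM (called higher) and TP63 at 1.12 to 1.23 and 0.716 to 0.868 FPKM (called lower). Of the markers of other tissues, the endothelial cadherin CDH5 was well above 0, at 13.7 to 13.9 FPKM in the control libraries and 22.02 to 22.3 FPKM in the SK/EPI-siBCRP libraries, while the endothelial markers PECAM1 and VWF did not pass 0.229 FPKM. The fibroblast and leukocyte markers stayed under 1.23 FPKM, with LUM and LYZ at 0.

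Of 58735 genes listed, 16298 passed the filter on low values and entered the limma test, after log2(FPKM + 1). The log2 fold changes below are differences of group means on this scale, SK/EPI-siBCRP minus SK/EPI-siControl. They understate the change of genes with low FPKM. At an adjusted p-value under 0.05, 6215 genes were called, 38.1% of those tested. Of these, 3163 (19.4%) were upregulated and 3052 (18.7%) were downregulated. With so many genes called, the shares in a group of genes are given against these values. Most changes were small, and 334 upregulated and 464 downregulated genes differed by at least 0.5 on the log2 scale. The median over all tested genes was -0.004. In bulk RNA, fewer cells of a kind and less RNA per cell cannot be told apart.

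The direction of change moved with the base composition and the length of a gene. Among protein-coding genes, 17.2% of the quartile lowest in GC content were upregulated and 25.6% downregulated. In the quartile highest in GC these shares were 29.3% and 14.2%. The medians of these quartiles were -0.03 and 0.05. By merged exon length, 26.8% of the shortest quartile were upregulated and 15.9% downregulated, against 16.3% and 23.5% of the longest quartile. The part of GC content and length in the results below was not tested, but the median of each group of genes was also computed after subtracting the median of the tested genes in the same of 10 bins of GC content, an alternative added after the data were seen.

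**Figure D1:**
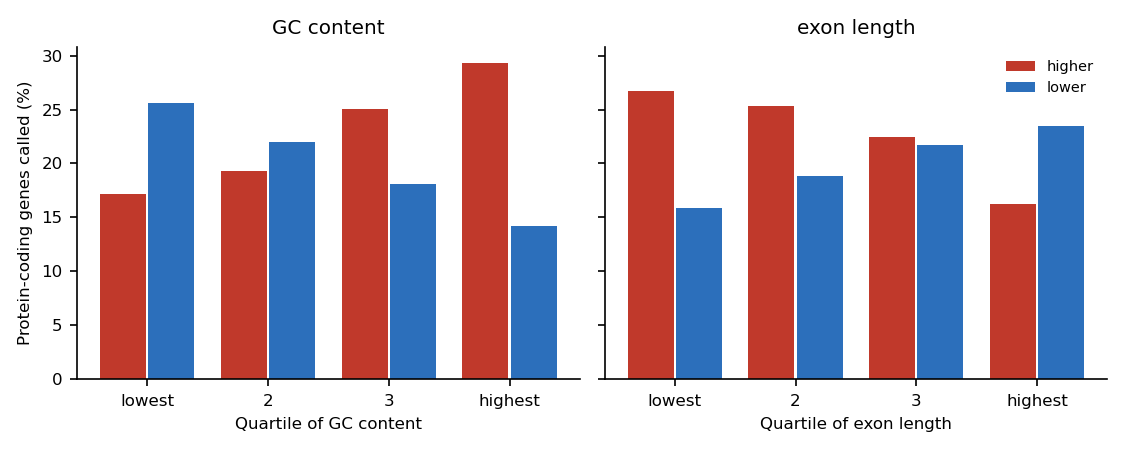
Share of tested protein-coding genes called higher (red) or lower (blue) in SK/EPI-siBCRP libraries at an adjusted p-value under 0.05, in percent, by quartile of GC content (left) and of merged exon length (right). The share called higher goes from 17.2% to 29.3% from the lowest to the highest GC quartile, and from 26.8% to 16.3% from the shortest to the longest genes.

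Among 39 lists of genes, described below by their roles, mitosis had the largest share of downregulated members and fatty acid synthesis and the cytosolic tRNA synthetases had the largest shares of upregulated members. Members of 1 list can share a function and neighbours, and a gene can be in more than 1 list. Counts of members are over those that passed the filter.

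**Figure D2:**
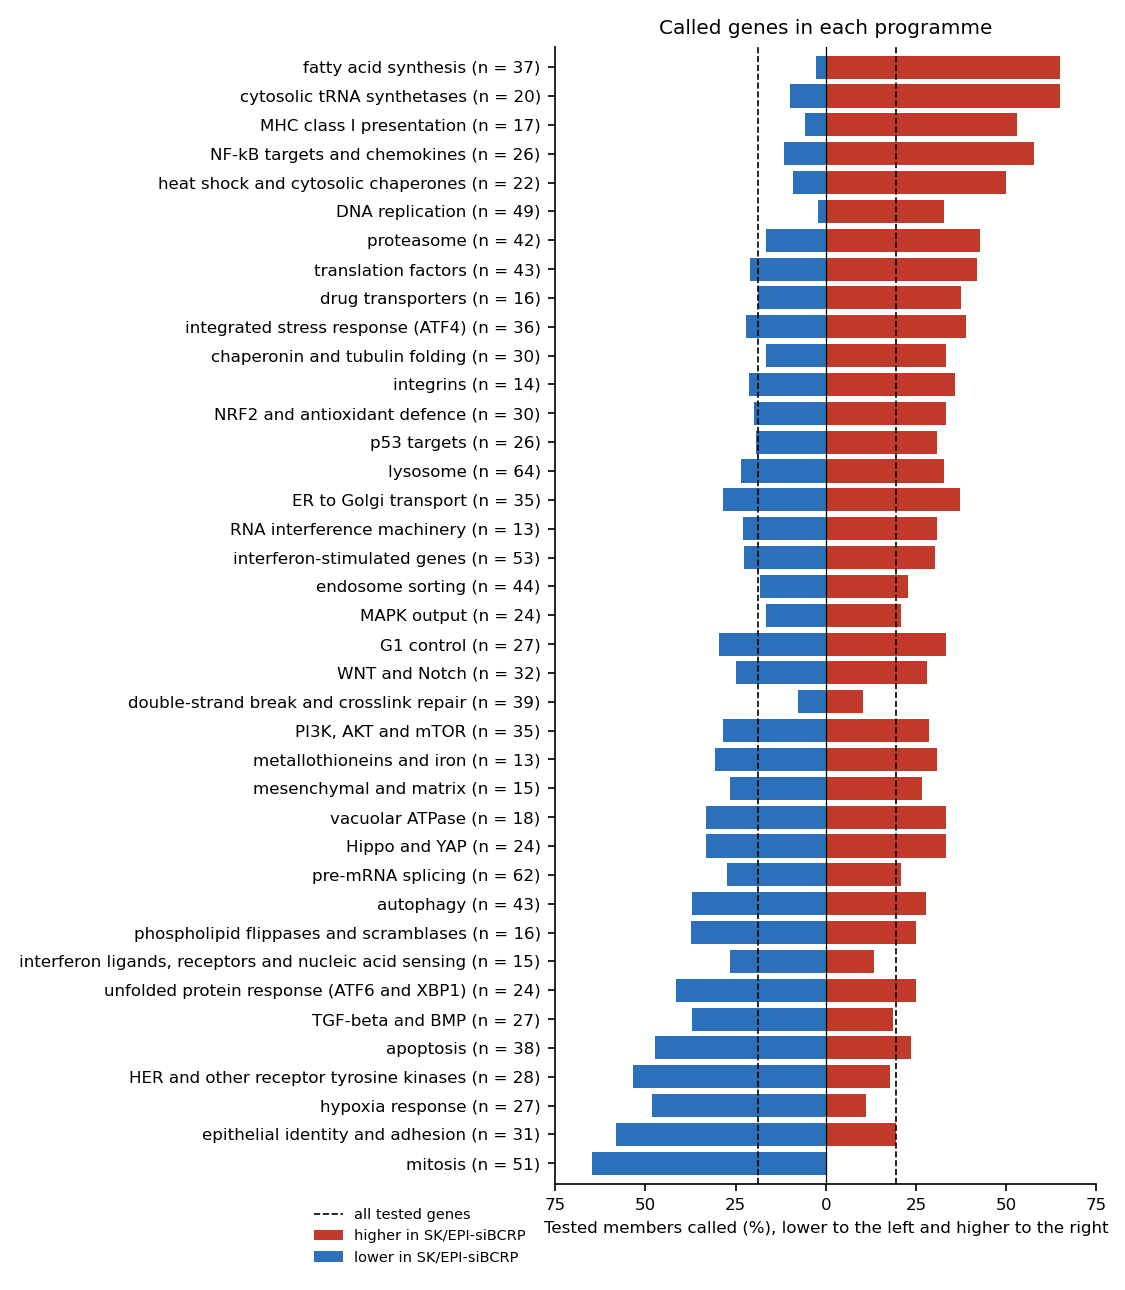
Percent of the tested members of each of 39 gene lists that were called lower (blue, to the left) or higher (red, to the right) in SK/EPI-siBCRP libraries, with the number tested in parentheses. Dashed lines mark the shares over all tested genes, 18.7% lower and 19.4% higher. Lists are ordered by the difference of both shares, from mitosis at the bottom to fatty acid synthesis at the top.

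The largest single falls after that of ABCG2 were in genes of several roles. LAMP1, an abundant glycoprotein of the lysosomal membrane, was at 82.7, 80.2 and 81.1 FPKM in the control libraries and at 14.1, 14.2 and 13.6 FPKM in the SK/EPI-siBCRP libraries. PSMD10, a chaperone of proteasome assembly also known as gankyrin, went from 16.1 ± 0.875 to 3.25 ± 0.340 FPKM (mean ± SD, n = 3 in each group, as for all such values below). TBCA, a cofactor that binds beta-tubulin during folding, went from 30.5 ± 0.166 to 6.92 ± 0.204 FPKM. TMEM30A and TMEM30B, both CDC50 subunits that many phospholipid flippases need to leave the endoplasmic reticulum, fell together, with log2 fold changes of -1.73 and -1.45. TRIAP1, a small p53-regulated protein that carries lipids in mitochondria, was at 14.3, 14.5 and 13.8 FPKM against 3.99, 4.07 and 4.05 FPKM. STMN1, which sequesters tubulin, was at 18.2, 18.3 and 17.6 FPKM against 5.47, 5.17 and 6.03 FPKM. HIST1H1C, a linker histone gene, went from 117 ± 12.2 to 39.3 ± 1.64 FPKM. The groups did not overlap for any of these genes, and their adjusted p-values lay between 2.5e-08 and 9.5e-06. HIST1H2APS3, which completes the 10 largest falls, is a histone pseudogene at 5.73 ± 1.155 and 1.75 ± 1.501 FPKM, whose reads could come from near-identical histone genes.

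Among the largest single rises in genes of known function, ACLY rose from 38.2 ± 1.19 to 89.1 ± 2.74 FPKM and CCL5 from 55.2 ± 0.917 to 125 ± 2.44 FPKM. INSIG1, the endoplasmic reticulum protein that retains SCAP, rose from 15.5 ± 0.708 to 32.3 ± 0.113 FPKM. GDF15, a stress-induced cytokine of the TGF-beta superfamily, was at 19.7, 19.8 and 18.6 FPKM in the control libraries and at 41.3, 37.8 and 41.0 FPKM in the SK/EPI-siBCRP libraries. IL34, a ligand of the CSF1 receptor, went from 2.56 ± 0.189 to 6.07 ± 0.532 FPKM, and ALPG, a placental-like alkaline phosphatase with close paralogs, from 3.80 ± 0.285 to 9.56 ± 0.458 FPKM. KLHDC7B rose from 37.8 ± 0.579 to 76.4 ± 3.67 FPKM. The remaining genes of the 10 largest rises were noncoding. AL445524.1 went from 1.24 ± 0.133 to 6.50 ± 0.597 FPKM and FBXL19-AS1 from 2.37 ± 0.253 to 8.52 ± 0.277 FPKM, while MIR4653, a miRNA gene of 83 bases, rested on 5 to 7 reads per control library and 12 to 21 reads per SK/EPI-siBCRP library.

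**Figure D3:**
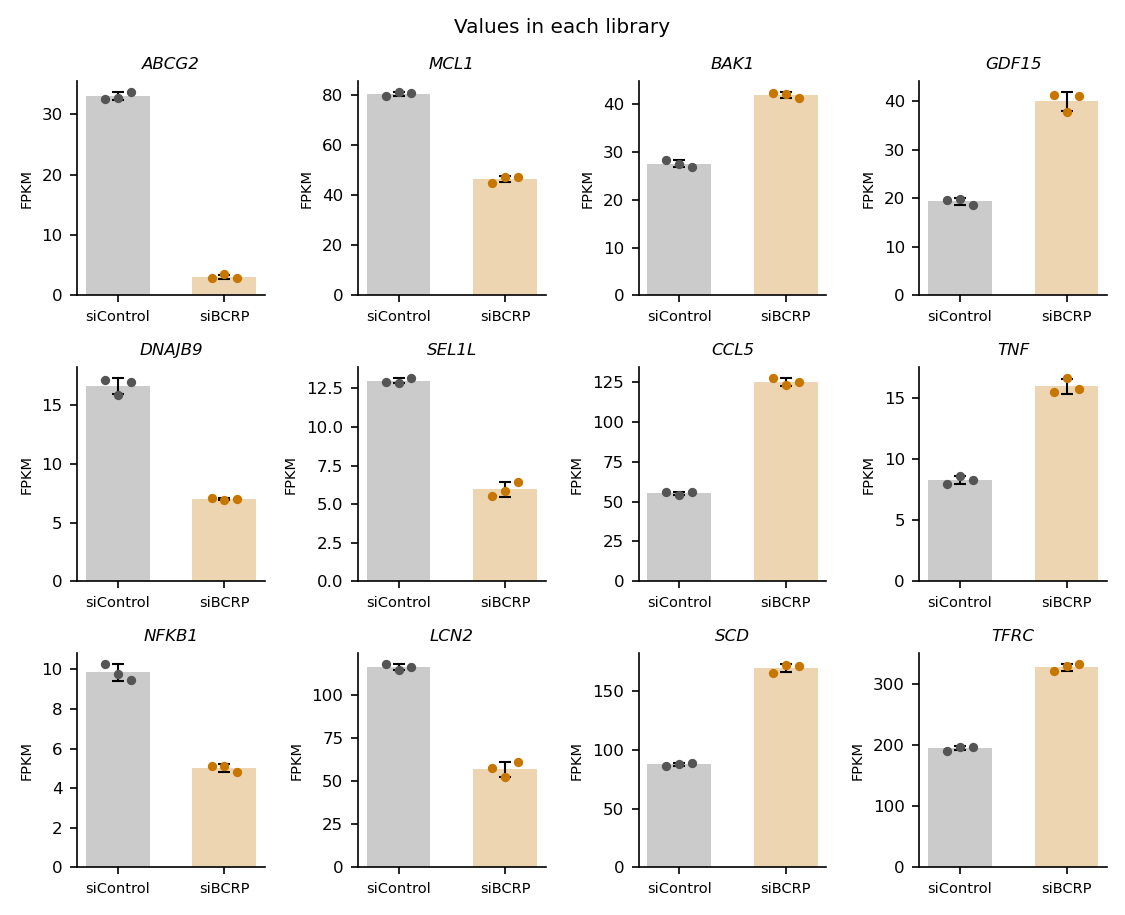
FPKM of 12 genes in each library, with SK/EPI-siControl in grey and SK/EPI-siBCRP in orange. Points are libraries, bars are means over 3 libraries and error bars are SD, on linear axes that start at 0. For each gene shown, all points of one group lie above all points of the other, from 2.84 to 3.47 against 32.5 to 33.7 FPKM for ABCG2.

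The cell-cycle genes split by phase, with genes of mitosis lower and genes of DNA replication partly higher. Cells entering mitosis need cyclin B with CDK1, the kinetochore, the spindle and the condensins. Most of the genes for these are transcribed late in the cycle through the MMB-FOXM1 complex. Of 51 mitotic genes tested, 33 were downregulated and 0 upregulated, while 18 did not pass the test, and the median was -0.21 on the log2 scale. With each library left out in turn, 30 to 34 were downregulated, and 1 was upregulated without SK/EPI-siControl replicate 3. At an unadjusted p under 0.05, limma gave 38 lower and 2 higher (NCAPH and CKS1B, named after their values were seen), and limma's voom on recovered reads again called 0 higher. After the GC correction the median was -0.20. FOXM1, the transcription factor of this programme, which shares 15.9% of its exon length with the antisense gene ITFG2, was at 12.6, 13.2 and 13.3 FPKM in the control libraries and at 9.12, 8.42 and 7.82 FPKM in the SK/EPI-siBCRP libraries (log2 fold change -0.57, standard error 0.053, adjusted p = 1.9e-04). TOP2A, the topoisomerase that anthracyclines such as epirubicin poison, was at 77.9, 80.2 and 79.6 FPKM against 52.9, 53.5 and 54.3 FPKM (log2 fold change -0.56, standard error 0.021, adjusted p = 5.1e-06). The groups of both genes were clear of each other.

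Within mitosis, the fall was found in each role. Of the cyclins, kinases and phosphatases, 7 of 14 fell, among them CCNB1, from 64.2 ± 0.874 to 49.6 ± 1.13 FPKM, CDC25C, which activates CDK1, from 5.78 ± 0.316 to 3.66 ± 0.198 FPKM, and CDK1 itself by 0.12 on the log2 scale. PLK1 was not called, at 26.0 ± 0.280 and 25.8 ± 0.226 FPKM. Of the spindle checkpoint and anaphase genes, 4 of 6 fell, including PTTG1, the securin that holds separase, from 18.2 ± 0.315 to 12.9 ± 0.805 FPKM. Of the kinetochore and passenger genes 7 of 10 fell, of the spindle and cytokinesis genes 9 of 13, and of the chromosome structure and marker genes 6 of 8. MKI67, the proliferation marker Ki-67, was at 11.99, 12.6 and 11.8 FPKM against 9.49, 10.1 and 9.63 FPKM.

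DNA replication genes went the other way or did not pass the test. Of 49 tested, 16 were upregulated and 1 downregulated, 32 did not pass the test, and the median was 0.07. Of the licensing genes, which load the MCM helicase in G1, 8 of 16 were upregulated, and of the fork genes 6 of 25. GMNN, which blocks a second round of licensing, rose from 8.01 ± 0.489 to 11.4 ± 0.721 FPKM, RFC2, a subunit of the clamp loader, from 23.5 ± 0.397 to 29.4 ± 0.620 FPKM, and PCNA, the clamp itself, from 92.2 ± 1.12 to 106 ± 2.08 FPKM. CDC6, a licensing factor, was the member that fell, from 23.0 ± 0.179 to 20.3 ± 0.235 FPKM. In the control of G1, 9 of 27 genes rose and 8 fell. E2F1, the activator of S-phase genes, was at 20.1, 21.2 and 21.3 FPKM against 31.7, 28.9 and 29.4 FPKM (log2 fold change 0.50, standard error 0.041, adjusted p = 1.0e-04). CCNE1 and CCND3 also rose, by 0.29 and 0.36. Of 7 tested inhibitors of cyclin-dependent kinases, 5 fell, among them CDKN2C (from 3.74 ± 0.101 to 2.17 ± 0.133 FPKM) and CDKN1B (from 31.0 ± 0.787 to 27.2 ± 0.582 FPKM). CDKN1A, the p53 target p21, was not called, at 1.45 to 1.59 FPKM in the control libraries and 1.59 to 2.51 FPKM in the SK/EPI-siBCRP libraries. Of 39 genes of double-strand break and crosslink repair, 4 rose (10.3%) and 3 fell (7.69%), both below the shares over all tested genes. Among these 7 were H2AFX, the damage-marking histone, which fell from 58.1 ± 1.24 to 41.8 ± 2.70 FPKM, and CHEK1, the S-phase checkpoint kinase, which rose from 7.64 ± 0.453 to 9.79 ± 0.413 FPKM. Of the repair genes, 2 rose without SK/EPI-siBCRP replicate 1 or 2, and 1 fell without SK/EPI-siControl replicate 3.

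**Figure D4:**
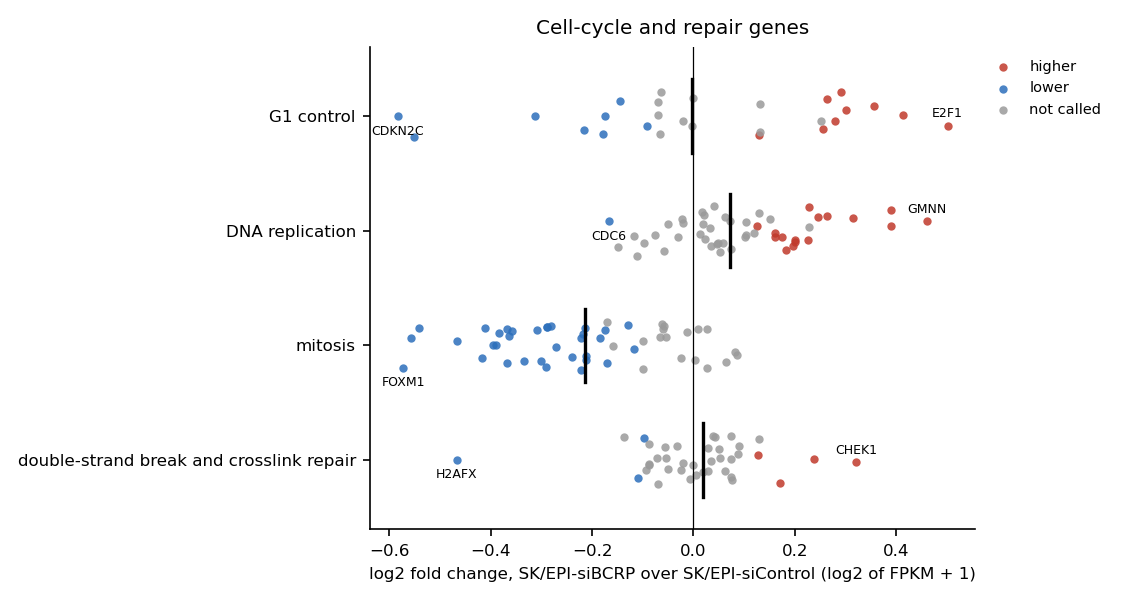
Log2 fold change of each tested member of the lists of G1 control, DNA replication, mitosis and repair, with genes called higher in red, called lower in blue and not called in grey, and the called gene with the largest rise and fall of each list labelled. Vertical bars mark the medians, at -0.21 for mitosis and 0.07 for DNA replication, and the vertical spread of points carries no value.

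Promoter sequences were described for all matched genes of the mitotic list, called or not. The shares below follow from membership of the lists and say nothing about the change after BCRP siRNA. Genes of this group are known to carry the cell-cycle genes homology region, TTTGAA, and CCAAT boxes near their start. In RefSeq promoter windows of 250 bases before to 50 after the start (GRCh38.p14), TTTGAA or its reverse complement stood in 63.6% of the 55 windows of 43 matched mitotic genes, in 3.45% of the 58 windows of 42 matched replication genes and in 10.4% of the 15553 windows of tested genes. CCAAT on either strand stood in 70.9%, 53.4% and 34.5% of them, and both in 49.1%, 1.72% and 4.15%. The motifs do not overlap in letters. The 150 bases before the start are shown for the 4 mitotic genes with the largest falls among those with both motifs in that stretch, and for GMNN, the replication gene with the largest rise, with the motifs in capitals on either strand. A match is a description of the sequence, not of a bound site.
CDC25C, chr5:138331805-138331954, minus strand: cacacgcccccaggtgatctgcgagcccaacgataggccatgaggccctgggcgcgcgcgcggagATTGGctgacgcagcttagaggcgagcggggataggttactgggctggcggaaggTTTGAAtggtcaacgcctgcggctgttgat
CENPA, chr2:26785906-26786055, plus strand: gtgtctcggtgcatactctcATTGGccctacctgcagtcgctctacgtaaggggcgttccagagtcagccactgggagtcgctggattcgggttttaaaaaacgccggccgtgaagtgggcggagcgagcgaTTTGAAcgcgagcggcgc
CCNB2, chr15:59104996-59105145, plus strand: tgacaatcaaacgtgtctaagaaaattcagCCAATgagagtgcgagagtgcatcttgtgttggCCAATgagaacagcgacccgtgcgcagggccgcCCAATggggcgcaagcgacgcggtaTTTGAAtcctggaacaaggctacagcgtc
NCAPD2, chr12:6493952-6494101, plus strand: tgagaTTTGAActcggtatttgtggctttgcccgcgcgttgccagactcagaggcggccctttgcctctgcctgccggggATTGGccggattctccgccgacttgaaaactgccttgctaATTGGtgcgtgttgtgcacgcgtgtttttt
GMNN, chr6:24774787-24774936, plus strand: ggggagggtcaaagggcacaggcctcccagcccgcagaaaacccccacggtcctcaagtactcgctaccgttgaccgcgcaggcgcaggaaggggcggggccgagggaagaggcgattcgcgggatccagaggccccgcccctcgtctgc
The 4 genes were chosen after their values were seen. CCNB2 held CCAAT 3 times and TTTGAA 1 time in this stretch, and GMNN held neither.

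Genes of apoptosis were more often lower than higher. The mitochondrial pathway runs from BH3-only proteins through BAX and BAK1 to cytochrome c, the apoptosome and the executioner caspases, and is held back by MCL1 and BCL2L1. Of 38 genes tested, 18 were downregulated and 9 upregulated, with a median of -0.12. MCL1, the short-lived guardian of the outer membrane, was at 79.5, 81.3 and 80.7 FPKM in the control libraries and at 45.0, 47.4 and 47.1 FPKM in the SK/EPI-siBCRP libraries (log2 fold change -0.78, standard error 0.026, adjusted p = 3.2e-06), and BCL2L1 fell by 0.19. Of 11 caspase and apoptosome genes 8 fell, among them CYCS, cytochrome c (from 77.8 ± 1.35 to 52.8 ± 1.61 FPKM). The BCL2 family members that promote death were split. BAK1, a pore former, rose from 27.5 ± 0.756 to 41.9 ± 0.652 FPKM and PMAIP1, the MCL1 antagonist NOXA, from 23.6 ± 0.288 to 32.5 ± 0.810 FPKM, while BCL2L11, which encodes BIM, fell from 7.62 ± 0.201 to 5.41 ± 0.142 FPKM. TNFRSF10B, the TRAIL receptor DR5, rose from 15.5 ± 0.144 to 19.3 ± 0.891 FPKM.

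The p53 targets showed no common direction, with 8 of 26 up (30.8%, or 5 genes without SK/EPI-siControl replicate 2) and 5 down (19.2%). SK-BR-3 cells are known to carry a mutant p53. GADD45A rose from 10.3 ± 1.01 to 14.4 ± 0.3003 FPKM and FDXR, a mitochondrial reductase, from 13.3 ± 0.847 to 17.9 ± 1.46 FPKM. BTG2, an antiproliferative gene, fell from 17.4 ± 0.276 to 9.46 ± 0.827 FPKM and ZMAT3, an RNA-binding target, from 15.5 ± 0.384 to 8.68 ± 0.110 FPKM.

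The stress pathways moved apart from each other. In the integrated stress response, kinases that phosphorylate eIF2 raise translation of ATF4, whose targets take up and make amino acids. Of 36 genes of this response, 14 were upregulated and 8 downregulated, with a median of 0.09. GDF15 had the largest rise. PSAT1, an enzyme of serine synthesis, was at 20.6, 19.99 and 19.5 FPKM against 31.9, 31.8 and 29.4 FPKM, and SLC7A5, the leucine transporter LAT1, was at 104, 104 and 103 FPKM against 156, 151 and 151 FPKM. STC2 and TRIB3 rose by 0.53 and 0.23. The opposite was seen for SLC1A5, the glutamine transporter ASCT2, which fell from 33.1 ± 0.965 to 17.0 ± 0.923 FPKM and shares 23.8% of its exon length with an antisense gene. ATF4 was at 63.8 ± 2.11 and 63.7 ± 1.70 FPKM and DDIT3, which encodes CHOP, at 8.02 ± 0.472 and 8.74 ± 0.632 FPKM, neither of them called, and CEBPB fell by 0.29. ASNS, a target of ATF4, was listed at 0.177 to 0.232 FPKM, and 44.6% of its exon length is shared with another gene, which makes its level uncertain.

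The unfolded protein response of the endoplasmic reticulum leaned the other way, with 10 of 24 genes downregulated, 6 upregulated and a median of -0.09. Of the genes of degradation and transport 4 of 7 fell, and of the sensors 2 of 3. The folding genes had 6 up and 4 down of 14, and the difference between roles was not tested. DNAJB9, a cochaperone that restrains IRE1, was at 17.1, 15.9 and 16.9 FPKM against 7.10, 6.91 and 7 FPKM (log2 fold change -1.14, standard error 0.036, adjusted p = 3.1e-06). SEL1L, the scaffold of the HRD1 ubiquitin ligase, was at 12.9, 12.9 and 13.2 FPKM against 5.56, 5.84 and 6.47 FPKM (log2 fold change -1.01, standard error 0.051, adjusted p = 1.3e-05). XBP1, whose mRNA IRE1 splices, fell from 27.7 ± 0.918 to 23.0 ± 0.281 FPKM. HSPA5, the chaperone BiP and the usual readout of this response, was not called, at 149 ± 3.91 and 147 ± 0.858 FPKM, and HSP90B1, its partner GRP94, rose by 0.15. Without SK/EPI-siBCRP replicate 2, SK/EPI-siBCRP replicate 3 or SK/EPI-siControl replicate 3, 3 genes were upregulated in place of 6.

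Of 22 heat shock and cytosolic chaperone genes, 11 rose and 2 fell, with a median of 0.10. HSPB1, the small heat shock protein HSP27, was at 628, 607 and 582 FPKM in the control libraries and at 955, 905 and 938 FPKM in the SK/EPI-siBCRP libraries. HSPD1, the mitochondrial chaperonin, rose from 157 ± 3.11 to 224 ± 2.81 FPKM. The genes most used as readouts of heat shock did not rise. HSPA1A, the inducible HSP70, fell from 50.4 ± 1.74 to 44.6 ± 1.31 FPKM, and DNAJB1 was not called. HSPA1A has a near-identical neighbour, HSPA1B, with which it can share reads. Of 30 chaperonin, prefoldin and tubulin genes 10 rose and 5 fell, or 3 fell without SK/EPI-siBCRP replicate 3, SK/EPI-siControl replicate 1 or SK/EPI-siControl replicate 2. Beside TBCA, TUBA1B, the main alpha-tubulin, fell from 116 ± 5.03 to 73.7 ± 0.977 FPKM, with 36.6% of its exon length shared with an antisense gene, and CCT3, a subunit of the ring that folds tubulin and actin, rose from 68.9 ± 1.44 to 85.9 ± 1.58 FPKM.

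Antioxidant genes had 10 of 30 members up and 6 down. NRF2, encoded by NFE2L2, binds the promoters of many of them when KEAP1 releases it. NFE2L2 fell from 16.04 ± 0.398 to 14.3 ± 0.0273 FPKM, and of its classic targets NQO1, TXNRD1 and GCLM were not called, with log2 fold changes of -0.04, -0.01 and 0.00. HMOX1, haem oxygenase 1, passed the threshold narrowly, from 36.5 ± 0.330 to 33.4 ± 1.99 FPKM (limma, adjusted p = 0.047), and its call was lost when any one library other than SK/EPI-siBCRP replicate 1 was left out. Genes of peroxide and superoxide removal were higher in 5 of 9 cases and lower in 1. PRDX2, a cytosolic peroxiredoxin, rose from 81.0 ± 0.928 to 104 ± 1.72 FPKM, PRDX5 from 170 ± 8.12 to 215 ± 10.03 FPKM and SOD2, the superoxide dismutase of the mitochondrial matrix, from 35.0 ± 1.42 to 42.3 ± 1.33 FPKM. GSR, which regenerates glutathione, rose from 25.1 ± 0.647 to 32.9 ± 1.02 FPKM.

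**Figure D5:**
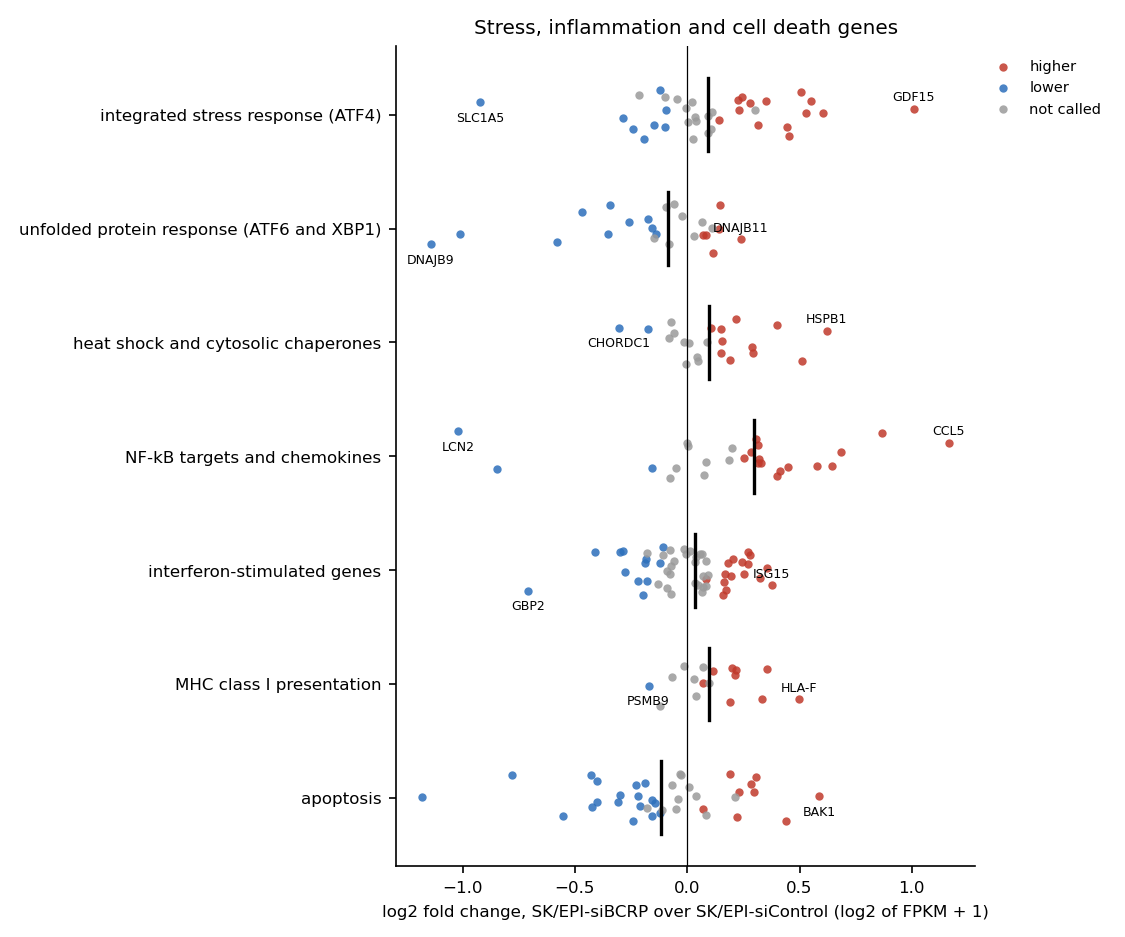
Log2 fold change of each tested member of 7 lists of stress, inflammation and cell death genes, with genes called higher in red, called lower in blue and not called in grey, and the called gene with the largest rise of each list, and with the largest fall of each list but apoptosis, labelled. Vertical bars mark the medians, from -0.12 for apoptosis to 0.30 for NF-kB targets and chemokines.

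In the lysosome, the fall of LAMP1 stood beside modest rises of other genes. Lysosomes degrade cargo with acid hydrolases that are sorted by mannose 6-phosphate, and their genes are activated together by TFEB and TFE3. Of 64 lysosomal genes, 21 were upregulated and 15 downregulated, with a median of 0.03. Among membrane proteins 6 of 11 rose, including LAMP2, the relative of LAMP1, from 30.5 ± 0.847 to 36.0 ± 0.245 FPKM, and MCOLN1, the calcium channel of the lysosome, from 10.8 ± 0.674 to 15.0 ± 0.245 FPKM. The cathepsins CTSH and CTSL rose from 32.3 ± 1.29 to 48.3 ± 0.436 FPKM and from 28.2 ± 1.73 to 39.7 ± 1.45 FPKM. NAGLU, a glycosidase, and GNPTAB, which makes the mannose 6-phosphate tag, fell by 0.55 and 0.48. Of 18 genes of the proton pump, 6 rose and 6 fell. In its cytosolic V1 sector 5 of 8 genes fell and 3 rose, and in its membrane V0 sector 1 fell, 1 rose and 6 did not pass the test. The V1 falls were led by ATP6V1F (from 164 ± 3.49 to 92.4 ± 2.40 FPKM, with 23.7% of its exon length shared with an antisense gene) and ATP6V1A (from 8.12 ± 0.224 to 5.24 ± 0.183 FPKM). Both accessory subunits, ATP6AP1 and ATP6AP2, rose, by 0.28 and 0.22.

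Autophagy genes were lower in 16 of 43 cases and higher in 12 (7 without SK/EPI-siBCRP replicate 2 or SK/EPI-siControl replicate 2), with a median of -0.03, or between -0.07 and -0.04 without SK/EPI-siBCRP replicate 1 or any one control library. In the initiation complex ULK1 fell from 10.7 ± 0.476 to 8.07 ± 0.489 FPKM and ULK2 from 1.44 ± 0.0196 to 0.879 ± 0.0980 FPKM, and CALCOCO2, a cargo receptor, from 2.52 ± 0.261 to 1.22 ± 0.0824 FPKM. MAP1LC3B, the ATG8 protein LC3B, rose from 12.2 ± 0.316 to 13.6 ± 0.335 FPKM. Of 44 endosome sorting genes 10 rose (22.7%) and 8 fell (18.2%), near the shares over all tested genes. PDCD6IP, the ESCRT-associated protein ALIX, was at 17.3, 17.1 and 17.6 FPKM against 7.82, 8.39 and 7.93 FPKM (log2 fold change -1.02, standard error 0.033, adjusted p = 3.2e-06), while RAB7A, the late endosome GTPase, rose from 88.1 ± 1.14 to 111 ± 2.26 FPKM. Among 35 genes of transport between the endoplasmic reticulum and the Golgi, 13 rose and 10 fell. The COPII coat, which buds vesicles from the endoplasmic reticulum, had 6 of 11 genes down, among them SEC23A (from 5.12 ± 0.486 to 2.71 ± 0.0494 FPKM) and SAR1A (from 29.9 ± 0.733 to 20.4 ± 0.782 FPKM). SEC23B, the paralog of SEC23A, rose from 20.1 ± 0.601 to 25.2 ± 0.378 FPKM. Of 16 flippase and scramblase genes 4 rose and 6 fell. Of the P4-ATPases, a family that includes the catalytic partners of TMEM30A and TMEM30B but not only these, 4 of 9 fell and 2 rose. ATP11A, among the latter, rose from 10.1 ± 0.159 to 13.7 ± 0.311 FPKM.

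NF-kB factors and cytokine genes were mostly higher, and most chemokine genes did not pass the test. NF-kB dimers are held in the cytoplasm by inhibitors that are themselves targets, and drive cytokines, chemokines and survival genes. Of 26 genes tested 15 were upregulated and 3 downregulated, with a median of 0.30, and of 0.27 after the GC correction. CCL5, a chemokine for T cells, was at 55.7, 54.1 and 55.7 FPKM in the control libraries and at 128, 123 and 125 FPKM in the SK/EPI-siBCRP libraries (log2 fold change 1.17, standard error 0.023, adjusted p = 5.9e-07). TNF was at 7.92, 8.65 and 8.31 FPKM against 15.5, 16.6 and 15.7 FPKM (log2 fold change 0.87, standard error 0.042, adjusted p = 1.2e-05). Both groups of values were far apart beside their spread. CSF1, a macrophage growth factor, rose from 11.5 ± 0.632 to 18.5 ± 0.656 FPKM, and IL32 from 1.81 ± 0.362 to 3.50 ± 0.332 FPKM. Of the NF-kB factors and inhibitors 7 of 9 rose, among them NFKBIA, the feedback inhibitor IκBα, from 69.7 ± 2.62 to 83.2 ± 2.36 FPKM. NFKB1, which encodes p50, went against them, at 10.3, 9.76 and 9.47 FPKM against 5.13, 5.11 and 4.81 FPKM (log2 fold change -0.85, standard error 0.043, adjusted p = 1.4e-05). LCN2, the siderophore-binding protein lipocalin 2, also fell, from 116 ± 1.82 to 57.1 ± 4.33 FPKM. Of 7 chemokine genes tested 2 rose, CCL5 and CXCL10 (the latter named after its values were seen), and 5 were not called. CXCL8 was one of these, at 0.762 ± 0.0930 and 0.869 ± 0.0600 FPKM, and CXCL1, CXCL2, CXCL3 and CSF2 did not pass the filter.

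Interferon-stimulated genes, which can rise when duplex RNA is sensed, had 16 of 53 members up and 12 down, with a median of 0.04 (0.02 without SK/EPI-siBCRP replicate 3 or SK/EPI-siControl replicate 3). ISG15, a ubiquitin-like modifier, was at 164, 160 and 159 FPKM against 212, 211 and 205 FPKM, and IFIH1, the RNA sensor MDA5, at 12.5, 12.3 and 12.8 FPKM against 16.2, 16.2 and 16.6 FPKM. MX1 rose by 0.16. The opposite held for IFIT2, which fell from 16.8 ± 0.242 to 13.4 ± 0.220 FPKM, and GBP2, from 4.84 ± 0.448 to 2.57 ± 0.131 FPKM. IFIT1 was not called. IFNB1 did not pass the filter, at 0 to 0.367 FPKM in the control libraries and 0.207 to 0.359 FPKM in the SK/EPI-siBCRP libraries. Of 15 tested genes of interferon receptors and nucleic acid sensing 2 rose and 4 fell, and IFNGR1, a chain of the interferon gamma receptor, was one of those that fell, from 96.3 ± 1.41 to 76.8 ± 1.69 FPKM. TMEM173, which encodes STING, rose from 25.2 ± 0.218 to 31.2 ± 0.894 FPKM. Both groups had received a duplex RNA, so the comparison does not show what transfection itself changed. Of 17 genes of antigen presentation on MHC class I, 9 rose and 1 fell, with a median of 0.10. No fall was left without SK/EPI-siBCRP replicate 2, SK/EPI-siBCRP replicate 3, SK/EPI-siControl replicate 1 or SK/EPI-siControl replicate 2, and 2 genes fell without SK/EPI-siControl replicate 3. B2M, the light chain, rose from 165 ± 3.25 to 189 ± 4.20 FPKM and NLRC5, the activator of these genes, from 8.25 ± 0.311 to 10.6 ± 0.480 FPKM. HLA genes are polymorphic and alike, so their reads could have been split.

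Among genes of signalling, those of the receptor tyrosine kinases were the most often lower, 15 of 28, with 5 higher and a median of -0.12, or of -0.04 with no filter on low values. The HER receptors signal as dimers, and ERBB2 is amplified with its neighbour GRB7 in this line. ERBB2 was at 103, 104 and 107 FPKM against 98.1, 96.2 and 96.1 FPKM and ERBB3 at 26.7, 26.6 and 27.2 FPKM against 22.8, 22.8 and 23.0 FPKM, falls of 0.11 and 0.22. EGFR was not called, at 35.4 ± 0.130 and 34.5 ± 0.617 FPKM. Of the adaptors and inhibitors 6 of 8 fell, while GRB2 and SHC1 rose, by 0.18 and 0.20. GRB7, an adaptor, was at 62.9, 62.5 and 62.1 FPKM against 45.6, 43.5 and 43.7 FPKM. CBL, a ubiquitin ligase that removes active receptors, fell from 8.48 ± 0.0486 to 4.89 ± 0.380 FPKM, ERRFI1, a feedback inhibitor of the HER kinases, from 18.5 ± 0.156 to 12.1 ± 0.401 FPKM, and GAB1, a docking protein, from 7.39 ± 0.240 to 4.91 ± 0.238 FPKM. FGFR4 rose from 2.92 ± 0.198 to 4.27 ± 0.192 FPKM.

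Downstream of the receptors, no direction prevailed. Of 24 genes of MAPK output 5 rose (20.8%) and 4 fell (16.7%), near the shares over all tested genes. The immediate early genes JUN, FOS and EGR1 were not called, with log2 fold changes of 0.00, 0.03 and 0.11. IER3, an early response gene, rose from 45.7 ± 1.35 to 82.4 ± 1.25 FPKM, with 26.5% of its exon length shared with an antisense gene, and DUSP4, a phosphatase of ERK, from 3.93 ± 0.242 to 5.29 ± 0.141 FPKM. IER2 fell from 31.5 ± 0.148 to 21.4 ± 0.194 FPKM. Of 35 genes of PI3K, AKT and mTOR 10 rose and 10 fell. RRAGA, a Rag GTPase that brings mTORC1 to the lysosome, fell from 51.8 ± 1.75 to 30.1 ± 1.44 FPKM and IRS1, an adaptor of the insulin receptor, from 2.36 ± 0.151 to 1.10 ± 0.142 FPKM, while RPTOR, the defining subunit of mTORC1, rose from 10.5 ± 0.381 to 12.1 ± 0.517 FPKM.

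In the Hippo pathway, whose kinases keep YAP1 and WWTR1 out of the nucleus, 8 of 24 genes rose and 8 fell, and 4 or 5 rose without any one library other than SK/EPI-siControl replicate 2. SAV1, the kinase scaffold, fell from 7.62 ± 0.337 to 4.17 ± 0.219 FPKM, WWTR1, which encodes TAZ, from 10.8 ± 0.0416 to 7.78 ± 0.222 FPKM, YAP1 from 26.2 ± 0.363 to 23.1 ± 1.31 FPKM, and the target ANKRD1 from 3.15 ± 0.0718 to 1.73 ± 0.134 FPKM, whereas the target CYR61 was not called. Genes of TGF-beta and BMP signalling were lower in 10 of 27 cases and higher in 5, with a median of -0.12, or of -0.21 by voom. SMAD1, which carries the BMP signal, was at 7.33, 7.38 and 8.23 FPKM against 3.44, 3.67 and 3.44 FPKM (log2 fold change -0.94, standard error 0.054, adjusted p = 2.3e-05). Its targets did not fall with it. ID2 rose from 4.65 ± 0.160 to 8.42 ± 0.583 FPKM, and ID1 was not called, at 2.10 ± 0.220 and 2.17 ± 0.209 FPKM. In WNT and Notch signalling 9 of 32 genes rose (5 without SK/EPI-siControl replicate 1) and 8 fell (5 without SK/EPI-siBCRP replicate 2 or 3), among the latter RBPJ, the DNA-binding partner of Notch, from 9.80 ± 0.177 down to 5.63 ± 0.275 FPKM, and CTNNB1, beta-catenin, from 11.8 ± 0.151 down to 9.73 ± 0.198 FPKM. The Notch target HES1 rose from 29.1 ± 1.58 to 33.4 ± 0.752 FPKM. The Notch targets NRARP and HEY1, named after their values were seen, did not rise with it. NRARP fell from 8.89 ± 0.752 to 7.57 ± 0.155 FPKM and HEY1 was not called.

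Hypoxia genes were lower in 13 of 27 cases and higher in 3, with a median of -0.15, or of -0.23 by voom. These genes are activated by HIF1A when oxygen-dependent hydroxylation stops. HIF1A itself was not called, at 90.04 ± 1.37 and 93.4 ± 2.48 FPKM. ERO1A, an oxidase of the endoplasmic reticulum, fell from 12.02 ± 0.262 to 8.30 ± 0.270 FPKM, PFKFB3, an activator of glycolysis, from 5.68 ± 0.459 to 4.24 ± 0.176 FPKM, and NDRG1 from 13.5 ± 0.202 to 10.4 ± 0.404 FPKM. VEGFA, the angiogenic target, went against them, at 20.6, 21.4 and 20.8 FPKM against 28.9, 28.6 and 29.3 FPKM (log2 fold change 0.45, standard error 0.024, adjusted p = 1.8e-05).

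Genes that take up iron rose. TFRC, the transferrin receptor, was at 191, 197 and 196 FPKM in the control libraries and at 320, 328 and 331 FPKM in the SK/EPI-siBCRP libraries (log2 fold change 0.74, standard error 0.025, adjusted p = 3.2e-06). SLC11A2, the iron transporter DMT1, rose from 9.82 ± 0.339 to 17.2 ± 0.268 FPKM and STEAP3, the endosomal ferrireductase, from 21.4 ± 0.485 to 30.7 ± 0.304 FPKM, while SLC40A1, the iron exporter ferroportin, fell from 10.8 ± 0.103 to 9.47 ± 0.108 FPKM. Of the 9 iron genes tested, 4 rose and 1 fell. Of 4 metallothioneins, which bind zinc and copper, 3 fell, and MT2A, the most abundant, went from 288 ± 31.6 to 198 ± 8.31 FPKM. Metallothionein genes are near-identical, so their reads are uncertain.

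Fatty acid synthesis was the list with the most upregulated members, 24 of 37, with 1 downregulated and a median of 0.21. Citrate leaves mitochondria and is turned into acetyl-CoA by ACLY, which ACACA and FASN use to make palmitate, and SCD, the FADS and the ELOVL enzymes desaturate and lengthen it, under SREBF1. All 4 factors of the list rose, as did 7 of 8 genes from acetyl-CoA to palmitate, 8 of 12 genes of desaturation and elongation and 5 of 13 of activation and esterification. SCD, the stearoyl-CoA desaturase, was at 86.3, 88.4 and 89.0 FPKM against 166, 172 and 172 FPKM (log2 fold change 0.94, standard error 0.024, adjusted p = 1.4e-06). ACLY was at 39.1, 38.7 and 36.9 FPKM against 86.0, 90.9 and 90.5 FPKM. FASN rose from 114 ± 1.65 to 156 ± 11.8 FPKM, with the 3 SK/EPI-siBCRP libraries spread from 146 to 169 FPKM. FADS2, the delta-6 desaturase, rose from 4.93 ± 0.146 to 9.62 ± 0.289 FPKM and ELOVL5 from 19.4 ± 0.605 to 28.2 ± 0.861 FPKM. PLIN3, a lipid droplet protein, fell from 25.4 ± 0.101 to 22.8 ± 0.894 FPKM. After the GC correction the median of the list was 0.20.

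Genes that make and remove proteins were more often higher than lower. Of 20 cytosolic tRNA synthetases, which charge tRNAs, 13 rose and 2 fell (1 without SK/EPI-siControl replicate 1), with a median of 0.16. NARS rose from 59.6 ± 1.40 to 75.7 ± 1.87 FPKM and FARSA from 43.9 ± 2.10 to 56.1 ± 1.41 FPKM. DARS, the aspartyl-tRNA synthetase, went against them, at 19.6, 19.8 and 19.4 FPKM against 11.6, 11.4 and 12 FPKM. Many synthetase genes are also known targets of ATF4. Of 43 translation factors 18 rose and 9 fell, and 4 or 5 fell without any one library other than SK/EPI-siBCRP replicate 3. EEF1A1, the elongation factor that brings tRNAs to the ribosome, fell from 906 ± 10.7 to 586 ± 13.4 FPKM, and EIF3K, a subunit of eIF3, rose from 41.1 ± 1.70 to 64.0 ± 0.506 FPKM. EEF1A1 has many processed pseudogenes that can share its reads. Of 42 proteasome genes 18 rose and 7 fell, with a median of 0.09. PSMB2, a subunit of the core, also fell, from 19.2 ± 0.326 to 8.76 ± 0.535 FPKM, while PSMC4, an ATPase of the base of the regulatory particle, rose from 38.9 ± 0.358 to 49.6 ± 1.45 FPKM and NFE2L1, the factor that activates proteasome genes, from 29.2 ± 0.435 to 34.3 ± 0.527 FPKM.

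Of 62 splicing genes 13 rose (21.0%) and 17 fell (27.4%), and the counts by class were unlike, a difference that was not tested. Of 31 snRNP proteins 11 rose and 5 fell, whereas of 13 hnRNPs 7 fell and 1 rose, and of 18 SR proteins and their kinases 5 fell and 1 rose. SNRPG, a core snRNP protein, rose from 19.6 ± 0.671 to 28.7 ± 0.878 FPKM, and HNRNPA1 fell from 217 ± 3.15 to 177 ± 2.95 FPKM. The machinery that uses siRNAs changed as well, with 4 of 13 genes up and 3 down. DICER1, which cuts precursors of small RNAs, was at 11.7, 12.1 and 11.98 FPKM against 7.46, 7.48 and 7.48 FPKM (log2 fold change -0.61, standard error 0.029, adjusted p = 1.2e-05). AGO2, the Argonaute that cleaves targets, rose from 5.92 ± 0.3 to 8.81 ± 0.194 FPKM and TARBP2, the partner of Dicer, from 7.74 ± 0.119 to 12.6 ± 0.307 FPKM.

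Of 31 genes of epithelial identity and adhesion 18 were downregulated and 6 upregulated, with a median of -0.15, or of -0.09 with no filter. KRT19 was at 659, 654 and 631 FPKM against 480, 470 and 483 FPKM. OCLN, a tight junction protein, fell from 6.09 ± 0.658 to 2.76 ± 0.254 FPKM, and the transcription factors SPDEF and GRHL1 fell from 6.25 ± 0.942 to 3.47 ± 0.0553 FPKM and from 9.26 ± 0.465 to 6.04 ± 0.266 FPKM. Of 13 epithelial regulators, which were transcription factors and the splicing regulators ESRP1 and ESRP2 (named after their values were seen), 9 fell, both ESRP genes among them, and 1 rose, GATA3, the luminal factor, from 12.9 ± 0.693 to 16.3 ± 0.547 FPKM. CLDN3 and KRT7 rose, by 0.22 and 0.18. The mesenchymal and matrix genes had no common direction. SPARC, the most abundant of those listed, rose from 179 ± 2.716 to 209 ± 2.235 FPKM. VIM was near 0, at 0 to 0.02 FPKM, SNAI2, ZEB1, ZEB2, TWIST1, TWIST2 and CDH2 did not pass the filter, and of 15 tested mesenchymal and matrix genes 4 rose and 4 fell. THBS1, a matrix glycoprotein, was at 17.3, 17.8 and 18.5 FPKM against 8.46, 8.36 and 8.34 FPKM (log2 fold change -1.01, standard error 0.032, adjusted p = 3.0e-06), FN1 fell from 1.89 ± 0.169 to 1.22 ± 0.0023 FPKM, and TIMP2, a metalloproteinase inhibitor, rose from 49.0 ± 0.477 to 64.3 ± 1.33 FPKM. Among 14 integrin genes 5 rose and 3 fell, with ITGB6 from 3.73 ± 0.450 down to 1.81 ± 0.0568 FPKM.

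The other drug transporters did not follow ABCG2 as a group, with 6 of 16 up and 3 down. ABCB1, the P-glycoprotein gene, was by far the highest of those named, at 206 FPKM in each control library and at 184, 190 and 186 FPKM in the SK/EPI-siBCRP libraries, a fall of 0.14 on the log2 scale (standard error 0.021, adjusted p = 0.0018). ABCC1 and ABCC5, which encode MRP1 and MRP5, fell from 23.1 ± 0.268 to 20.6 ± 0.839 FPKM and from 28.3 ± 0.575 to 21.3 ± 0.530 FPKM. ABCB8, a transporter of the inner mitochondrial membrane, rose from 5.45 ± 0.198 to 8.72 ± 0.356 FPKM.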

How the data were processed

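mRNA was captured on poly-T beads before library preparation. The authors deposited FPKM for 58735 genes per library. The table states no unit, and the submitters' processing notes name HISAT2 2.0.5, featureCounts 1.5.0-p3, DESeq2 1.16.1 and hg38, with no role given. The handling of strand and of reads in overlapping exons is not given in the sources used here, and 20.9% of tested genes shared 10% or more of their exon length with another gene. All genes matched GENCODE 29, and each value was a whole number of reads (100% within 0.01) after scaling by merged exon length, so reads per library were recovered.

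Genes reaching the equivalent of 10 reads (at a library of median size) in 3 libraries and 15 reads in all were tested with limma 3.58.1 (R 4.3.3; lmFit, eBayes with trend, pseudocount 1, two-sided, Benjamini-Hochberg over all 16298 genes, threshold 0.05) on group alone. Since the values were FPKM, limma and not a count test was used; voom on the recovered reads was an alternative. Steps were tested on simulated data. Figures and lists used Python 3.11.15, numpy 2.4.6, pandas 2.3.3 and matplotlib 3.10.9.

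The comparison and the gene lists were chosen with earlier results of these data known. The text takes the genes it names from ABCG2, the defining members of each list, up to 4 called members with the largest rise and 4 with the largest fall per list at 1 FPKM or more, and the 10 largest rises and falls at 5 FPKM or more without overlap. A few genes that this rule names are not reported here. Same-numbered libraries did not deviate together (correlations 0.020, 0.055 and 0.009), so the number was not used as pairing.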

Additional observations from a re-analysis of the deposited data

How the results depend on the processing

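The counts of genes called stayed within 1.5 times the main ones, with the same direction for every gene called both ways, under no filter (2451 higher, 2203 lower), a pseudocount of 0.1, scaling by reads on genes (2953 and 3212), median-of-ratios scaling, the mitochondrial chromosome left out (2996 and 3177), voom on recovered reads (3395 and 3647) and each library left out (2611 to 2771 higher, 2492 to 2632 lower), but fell to 2020 and 1833 at an adjusted p under 0.01. The replicate block gave 2896 and 2744, and 5373 genes were called both ways; the numbers do not pair the libraries. The rule for named genes selected 354 tested genes, more than the text names, and 292 of the 323 called among them kept direction and call in each setting. The median log2 fold change of a list moved by more than the spread between replicates as follows. A pseudocount of 0.1 gave 0.1264 for the integrated stress response, 0.3843 for NF-kB, -0.02701 for Hippo and -0.2054 for hypoxia. No filter gave 0.001525 for MAPK output, -0.0389 for receptor tyrosine kinases, -0.08966 for apoptosis and -0.09469 for epithelial genes. Voom gave -0.1067 for flippases, 0.398 for NF-kB, -0.1487 for receptor tyrosine kinases, -0.04276 for Hippo, -0.2102 for TGF-beta, -0.03792 for WNT and Notch, -0.228 for hypoxia, -0.1409 for apoptosis, -0.178 for epithelial genes and -0.03297 for integrins. At least 10 reads in every library gave -0.08536 for flippases. The GC correction gave -0.05824 for autophagy, -0.004253 for Hippo and 0.05011 for RNA interference. With each library left out, medians ranged from -0.06904 to -0.02076 for autophagy, -0.01404 to 0.0367 for endosome sorting, -0.02052 to 0.03141 for transport from the endoplasmic reticulum, -0.02869 to 0.02352 for interferon receptors and sensing, 0.06918 to 0.1196 for MHC class I, -0.02931 to -0.00804 for Hippo, -0.02616 to 0.01441 for WNT and Notch and -0.03403 to 0.01267 for integrins. The causes were not tested. Depth limits genes of few reads, and the pseudocount shrinks the change of genes with low FPKM.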
